A study of Mus musculus with 2 samples.

Results

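The genes described here are 10 immune checkpoint and inhibitory receptor genes of microglia: Lag3, Havcr2, Vsir, Cd274, Cd80, Cd86, Lair1, Cd200r1, Sirpa and Cd47. They were picked by symbol from the deposited feature table, where all 10 were present among 32285 genes, each under 1 identifier. Their raw unique molecular identifier (UMI) counts were summed over cells, per treatment and per cell state. Microglia were sorted as CD11b+ CD45+ Ly6G- CD206- cells from PBS-perfused brains of 12-week-old mice heterozygous for Cx3cr1CreERT2(Litt). This allele puts a tamoxifen-inducible Cre recombinase under the fractalkine receptor gene Cx3cr1, and both groups carried it. One group received tamoxifen (TAM), the estrogen receptor ligand that activates CreERT2, and the other received the oil vehicle, for 4 weeks. The labels name no floxed allele, and a TAM group lacking the Cre allele was not analysed here. Antibody hashtags named TAM1 to TAM5 and Oil1 to Oil5 marked 5 samples per treatment in 1 droplet pool. The labels do not say that a hashtag is a separate mouse, so p-values cover the variation among hashtags, and that variation may be technical.

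Checkpoint and inhibitory receptors restrain the activation of immune cells, many of them through cytoplasmic tyrosine motifs that recruit phosphatases. In myeloid cells SIRPα, encoded by Sirpa, binds CD47 on other cells and limits engulfment, CD200R1 binds CD200 of neurons, and LAIR1 binds collagen and, in human cells, C1q. TIM-3 (Havcr2), LAG-3 (Lag3), VISTA (Vsir) and the ligand PD-L1 (Cd274) are best known from T cells and the cells that present antigen to them, where CD80 and CD86 are the ligands of CD28 and CTLA-4.

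The matrix held 9975 barcodes of a single library, none of them listed more than once, with a median of 4974 UMIs. Of these, 7903 were assigned to 1 hashtag and passed the filters, and 7541 of them formed 6 microglia-like clusters. There, the median detection of 14 markers of microglia was 96.6% to 100% of cells per cluster. Cluster 1, of 310 cells, was left unnamed and out of the sums for its low depth, at a median of 1494 UMIs. Its median detection of these markers was 62.1%, and no microglial marker was among its leading genes. Hashtags held 586 to 903 microglia-like cells and 2957604 to 4795880 UMIs each. Among markers of other cells, Ly6g, S100a8, S100a9, Ly6c2, Cd163, Cd3e and Cldn5 were at 0, while other markers of the same lists were detected. Some lists for other cells still had a summed level, all overlapping between treatments. The neutrophil list had 364 to 437 CPM (UMIs per 1000000) in TAM and 361 to 439 CPM in oil, nearly all of it Csf3r. The astrocyte list had 289 to 320.3 CPM in TAM and 258 to 333 CPM in oil, 99.6% of it Slc1a3, the B lymphocyte list 179 to 205 CPM in TAM and 171 to 205 CPM in oil, 84.9% of it Ighm, and the vascular list 39.5 to 47.8 CPM in TAM and 42.2 to 49.9 CPM in oil. The dividing-cell list did not overlap, at 21.0 to 117 CPM in TAM and 3.54 to 19.7 CPM in oil. Nor did the microglia list, which was lower in TAM, at 31487 to 32356 CPM against 32369 to 35143 CPM in oil. The mean log2 CPM of 20 immediate early genes, which respond within minutes to stimulation and to cell handling, was 4.04 to 5.19 in TAM hashtags and 5.29 to 7.24 in oil hashtags. It was highest in Oil1, Oil2 and Oil3, at 7.24, 6.59 and 6.36, and lower in Oil4 and Oil5, at 5.78 and 5.29. In TAM1 to TAM5 it was 5.11, 5.19, 4.49, 4.08 and 4.04, so it tended to fall with hashtag number within each treatment as well. The cluster led by Fos, Fosb and Egr1 (cluster 2) held a median of 0.742% of cells in TAM hashtags (0.513% to 11.7%) and 42.7% in oil hashtags (12.6% to 67.6%). The largest cluster (cluster 3) held a median of 62.9% in TAM hashtags (49.1% to 66.1%) and 24.3% in oil hashtags (9.77% to 39.3%). By Xist and Y-linked RNA, TAM1, TAM2, Oil1 and Oil2 read as male and the others as female.

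All 10 genes were detected in every hashtag, over a wide range of levels. Levels are UMIs per 1000000 (CPM) after TMM scaling. The 3′ chemistry tags 1 end of each transcript, so CPM is not divided by gene length, and capture can still differ between genes. Vsir, the gene of the checkpoint protein VISTA, had the highest level, at 1037 ± 38.6 CPM over all hashtags (SD, n = 10). Sirpa followed at 908 ± 37.0 CPM and Lair1 at 727 ± 31.4 CPM. These 3 inhibitory receptor genes stood above all other members in every hashtag.

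A middle group held Cd86 at 351 ± 27.2 CPM, Havcr2 at 289.6 ± 20.6 CPM and Cd47 at 188 ± 17.2 CPM. Lag3 averaged 99.0 ± 12.5 CPM, Cd200r1 45.0 ± 4.19 CPM and Cd80 42.0 ± 3.54 CPM. Cd274 was the lowest, at 11.5 ± 3.37 CPM, from 449 UMIs in all microglia-like cells. The ranges of neighbours in this order overlapped for Vsir with Sirpa, for Cd86 with Havcr2 and for Cd200r1 with Cd80, where the first was higher in 9 of 10 hashtags each time. The other neighbours did not overlap.

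**Figure D1:**
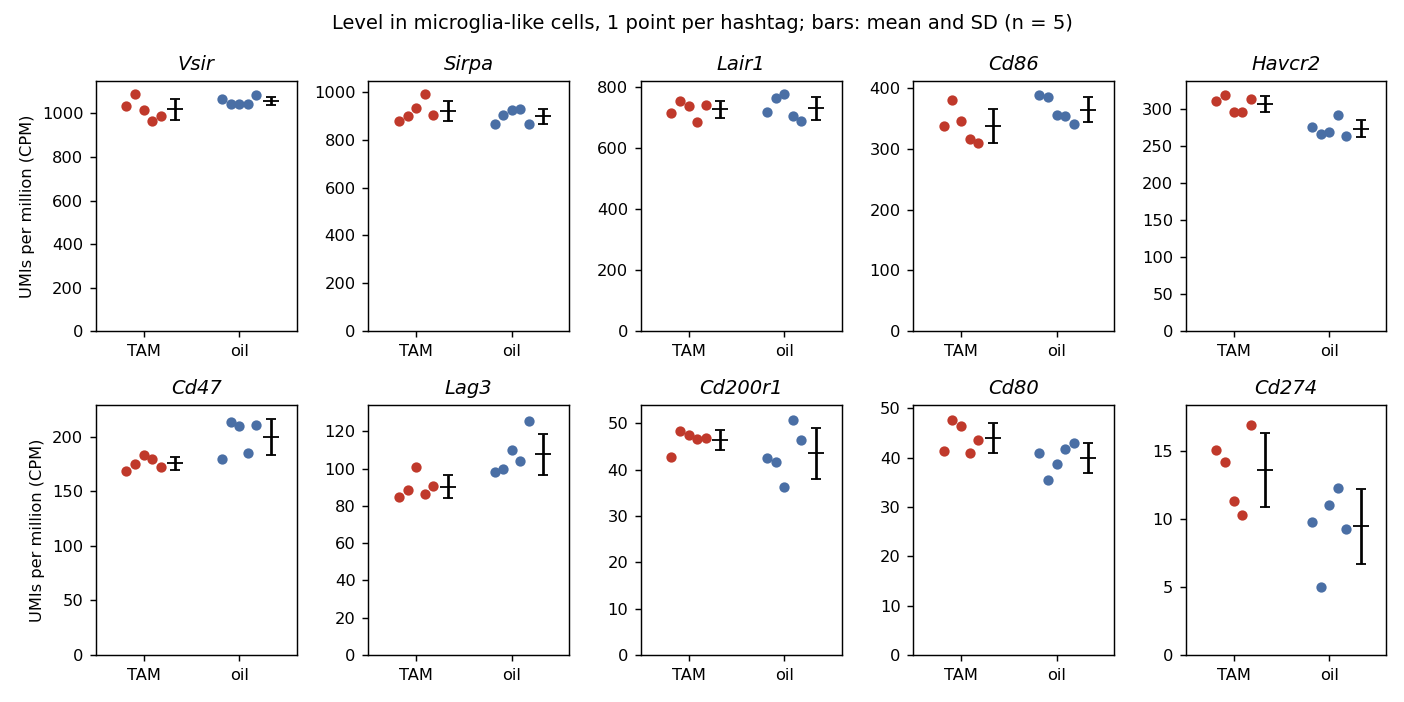
Level of each of the 10 genes in microglia-like cells, in UMIs per 1000000 (CPM, linear axes from 0), with 1 point per hashtag and bars for the mean and SD of 5 hashtags, TAM left and oil right. Havcr2 is the only panel of the 10 in which every TAM hashtag (295 to 318 CPM) lies above every oil hashtag (263 to 292 CPM).

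The treatment comparison asked which of these genes differed between TAM and oil microglia that carry the same allele. Havcr2 rose by 12.3% (95% interval 5.69% to 19.3%) and was the 1 member of 10 past the threshold (edgeR quasi-likelihood test, Benjamini-Hochberg adjusted p below 0.05), where 4.53% of the 11171 genes tested were called, 1.65% higher and 2.88% lower in TAM. DESeq2 called 4.43% of these genes, and edgeR with the replicate number as a block called 7.80%. Lag3 and Cd47 were lower in TAM by point estimate and just missed the threshold. The other 7 members did not pass either. The median log2 fold change, TAM over oil, was 0.01 over the 10 members, with 5 above and 5 below 0, and -0.00019 over all genes tested. Havcr2 was also the 1 member whose hashtags did not overlap between treatments, against 5.32% of all genes. From sums over many cells, fewer expressing cells and less RNA per cell cannot be told apart.

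Havcr2 encodes TIM-3, a receptor of galectin-9, phosphatidylserine, HMGB1 and CEACAM1. In TAM1 to TAM5 it measured 310.2, 318, 296, 295 and 313 CPM, against 275, 265, 268, 292 and 263 CPM in Oil1 to Oil5. All TAM hashtags were above all oil hashtags, with Oil4 the nearest. The means were 306 ± 10.6 CPM in TAM and 273 ± 11.5 CPM in oil (SD, n = 5 each). The log2 fold change was 0.17 ± 0.04 (SE) with an edgeR adjusted p of 0.0296.

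The call for Havcr2 held in 5 of the 10 fits that left out 1 hashtag each and was lost in the other 5. Without TAM2, TAM5, Oil2, Oil3 or Oil5 its adjusted p was 0.0528, 0.0769, 0.0666, 0.0751 or 0.0612 (edgeR), and its log2 fold change stayed between 0.15 and 0.19 whichever hashtag was left out. Without Oil1, Oil2 and Oil3 together, oil was left with Oil4 and Oil5, both read as female, against TAM hashtags of both sexes. In that smaller and less balanced fit the log2 fold change of Havcr2 was 0.15 ± 0.06 (SE) with an adjusted p of 0.355 (edgeR). In a fit that adjusted for the immediate early level it was 0.19 ± 0.07 with an adjusted p of 0.290 (edgeR). That level did not overlap between treatments, so the adjusted estimate extrapolates across a gap.

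The 250 bases before the RefSeq start of Havcr2 are shown because it is the member past the threshold, those of Cd274 because its level varied most between clusters, and those of Cd47 because its level was highest, among microglia-like clusters, in a different cluster. They come from the RefSeq promoter table for GRCm38.p6, which held 7 promoters of 6 members (Havcr2, Vsir, Cd274, Cd80, Lair1 and 2 of Cd47). Capitals mark matches, on either strand, of TGANTCA, the letters bound by the Fos and Jun family (AP-1), or of GAGGAA, the core bound by the myeloid factor PU.1. All 3 are on the plus strand, at chr11:46454681-46454930 for Havcr2, chr19:29367188-29367437 for Cd274 and chr16:49855404-49855653 for Cd47.
Havcr2: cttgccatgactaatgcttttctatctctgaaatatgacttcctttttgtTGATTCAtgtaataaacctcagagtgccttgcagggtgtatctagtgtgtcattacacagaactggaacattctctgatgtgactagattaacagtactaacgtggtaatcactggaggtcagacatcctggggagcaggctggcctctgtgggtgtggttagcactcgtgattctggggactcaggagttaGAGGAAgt
Cd274: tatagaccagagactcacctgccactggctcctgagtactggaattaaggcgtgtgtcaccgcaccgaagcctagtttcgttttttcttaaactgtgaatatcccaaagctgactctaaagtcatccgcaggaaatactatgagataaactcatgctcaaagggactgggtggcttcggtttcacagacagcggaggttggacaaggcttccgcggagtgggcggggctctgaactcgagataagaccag
Cd47: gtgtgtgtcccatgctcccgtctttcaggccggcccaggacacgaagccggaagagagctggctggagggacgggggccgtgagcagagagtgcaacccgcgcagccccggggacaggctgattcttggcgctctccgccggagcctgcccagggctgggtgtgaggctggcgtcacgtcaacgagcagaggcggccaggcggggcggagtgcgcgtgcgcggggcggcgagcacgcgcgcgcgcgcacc

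The Havcr2 window held 1 match of each motif, TGATTCA at bases -200 to -194 and GAGGAA at bases -8 to -3 counted from the start site. TGANTCA occurred in 1 other member, Cd80, and in 6.75% of 32851 promoters of this length. GAGGAA occurred in 1 other member, Lair1, and in 23.3% of promoters. The Cd274 and Cd47 windows held neither, and none of the 7 promoters searched held TTCNNNGAA, the gamma-activated site bound by STAT proteins, found in 7.02% of promoters. The motifs did not overlap each other in these windows, and a match is a run of letters, not a measured binding site. Base composition separated the 3 windows: 44.8% of bases were G or C for Havcr2, 50.4% for Cd274 and 73.2% for Cd47, against a median of 52.4% over all promoters. The Cd47 window held 30 CG pairs, the Cd274 window 11 and the Havcr2 window 2, against a median of 6.

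Lag3 encodes LAG-3, a CD4-related receptor whose best known ligand is MHC class II. It measured 84.7, 88.7, 101, 86.5 and 90.7 CPM in TAM1 to TAM5, against 98.1, 100.1, 110.2, 104 and 126 CPM in Oil1 to Oil5. The groups overlapped, since TAM3 lay above Oil1 and Oil2. The means were 90.3 ± 6.26 CPM in TAM and 108 ± 11.1 CPM in oil (SD, n = 5 each). The log2 fold change was -0.26 ± 0.07 (SE), a difference of -16.2%, with an adjusted p of 0.0513 (edgeR), just outside the threshold. With the replicate number as a block it was -0.25 with an adjusted p of 0.0118 (edgeR), and with DESeq2 its adjusted p was 0.0465.

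The size of the Lag3 estimate varied between fits. Adjusted for the immediate early level, the log2 fold change was -0.46 ± 0.10 (SE) with an adjusted p of 0.0453, and adjusted for the order of hashtags from 1 to 10 it was -0.50 ± 0.12 with an adjusted p of 0.103 (edgeR). With only Oil4 and Oil5 left in oil it was -0.34 ± 0.09 with an adjusted p of 0.177 (edgeR). Within the largest cluster it was -0.12 ± 0.12 with an adjusted p of 0.866 (edgeR). All 4 estimates had the same sign, and 1 of them passed the threshold.

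Cd47 and Sirpa encode both sides of the CD47 and SIRPα contact, and microglia expressed both. Cd47 measured 169, 175, 183, 179.6 and 172 CPM in TAM1 to TAM5, against 179.6, 214, 210.2, 185 and 211 CPM in Oil1 to Oil5. Oil1 and Oil4 lay near the TAM hashtags and the other oil hashtags stood above them, with TAM3 above Oil1. The means were 176 ± 5.77 CPM in TAM and 200.0 ± 16.2 CPM in oil (SD, n = 5 each). The log2 fold change was -0.19 ± 0.05 (SE), a difference of -12.1%, with an adjusted p of 0.0579 (edgeR). With the replicate block it was -0.18 with an adjusted p of 0.0228 (edgeR).

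Sirpa, the receptor gene of this pair, ranged from 878 to 989 CPM in TAM and from 866 to 927 CPM in oil. Its log2 fold change was 0.04 (95% interval -0.05 to 0.12) with an adjusted p of 0.689 (edgeR), which as a difference ran from -3.31% to 8.74%. The level of Sirpa was above that of Cd47 in every hashtag of both treatments.

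Cd274 encodes PD-L1, the ligand of PD-1. It measured 15.1, 14.2, 11.4, 10.3 and 16.9 CPM in TAM1 to TAM5, against 9.75, 5.02, 11.0, 12.3 and 9.24 CPM in Oil1 to Oil5. TAM1, TAM2 and TAM5 were above all oil hashtags, and TAM3 and TAM4 lay among them. The means were 13.6 ± 2.72 CPM in TAM and 9.46 ± 2.75 CPM in oil (SD, n = 5 each), from 266 TAM and 183 oil UMIs. The log2 fold change of 0.49 ± 0.20 (SE) was the largest in size of the 10 members, and its adjusted p was 0.172 (edgeR). The 95% interval, 0.08 to 0.90, was also the widest.

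Cd80 and Cd86, the ligands of CD28 and CTLA-4, had estimates of opposite sign, neither past the threshold. Cd80 ranged from 40.9 to 47.7 CPM in TAM and from 35.4 to 42.9 CPM in oil, with a log2 fold change of 0.13 ± 0.07 (SE) and an adjusted p of 0.331 (edgeR). Cd86 ranged from 309 to 380.1 CPM in TAM and from 341 to 388 CPM in oil, with a log2 fold change of -0.11 ± 0.06 (SE) and an adjusted p of 0.291 (edgeR). The treatments overlapped for both genes, and the sign of Cd86 turned when the fit adjusted for the immediate early level or for hashtag order, and within the largest cluster.

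Vsir, Lair1 and Cd200r1 did not pass the threshold. Vsir averaged 1019 ± 46.9 CPM in TAM and 1055 ± 18.3 CPM in oil (SD, n = 5 each), with a 95% interval of the log2 fold change from -0.13 to 0.03 and an adjusted p of 0.509 (edgeR). Lair1 averaged 726 ± 27.2 CPM in TAM and 729 ± 38.3 CPM in oil, with an interval from -0.10 to 0.08 and an adjusted p of 0.959 (edgeR). Its sign turned under library size scaling, where the log2 fold change was 0.03. Cd200r1 ranged from 42.8 to 48.4 CPM in TAM and from 36.2 to 50.7 CPM in oil, with an interval from -0.08 to 0.27 and an adjusted p of 0.587 (edgeR).

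**Figure D2:**
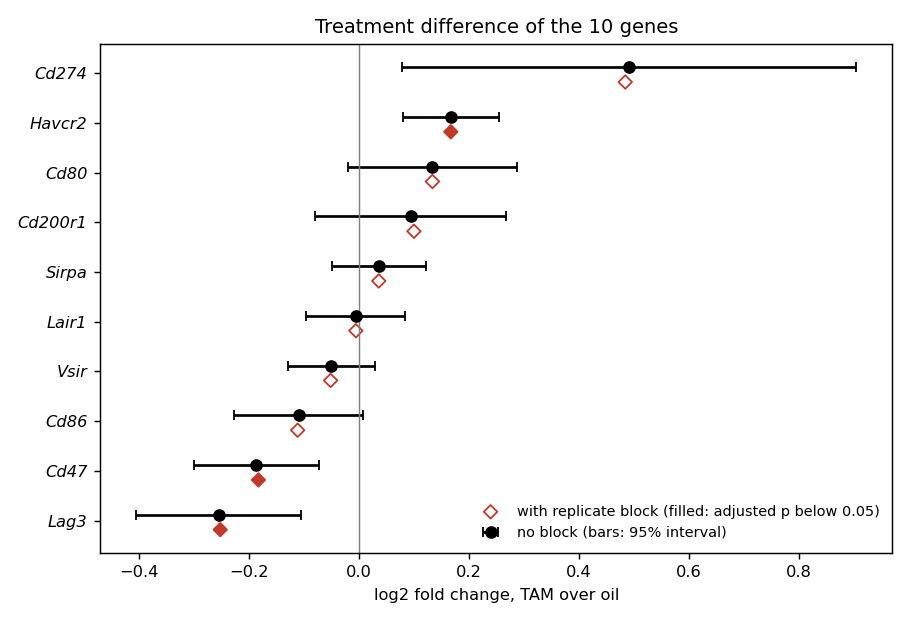
Log2 fold change of each gene, TAM over oil (horizontal axis), with circles and 95% intervals for the fit without a block and diamonds for the fit with the replicate number as a block, filled where the adjusted p of the block fit is below 0.05. The blocked estimates of Havcr2 (0.17), Cd47 (-0.18) and Lag3 (-0.25) are filled, and those of the other 7 genes are not.

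The difference in fold change between male and female hashtags passed the threshold for 0 of the 10 members (adjusted p = 0.883 to 0.999, edgeR interaction), where 0.0179% of genes were called, and 0 had an unadjusted p under 0.05. For Cd274 the log2 fold change was 0.97 ± 0.29 (SE) in males, with 2 hashtags per treatment, and 0.23 ± 0.21 in females, with 3 per treatment. The difference had an unadjusted p of 0.062 and an adjusted p of 0.883 (edgeR).

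**Figure D3:**
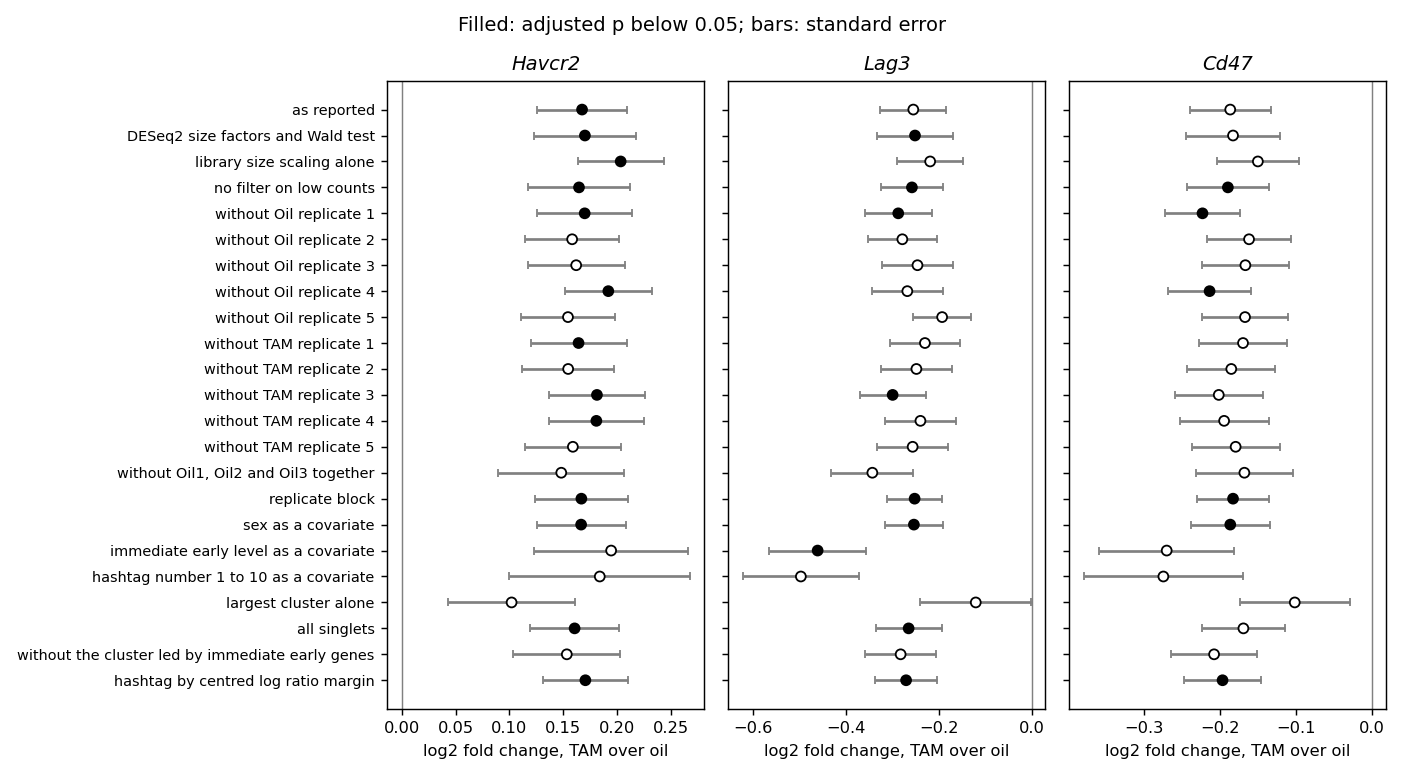
Log2 fold change, TAM over oil (horizontal axes), of Havcr2, Lag3 and Cd47 as reported and under 22 alternatives (vertical axis), with bars for the standard error and filled circles for an adjusted p below 0.05. All estimates keep 1 sign per gene, from 0.10 to 0.20 for Havcr2, -0.50 to -0.12 for Lag3 and -0.27 to -0.10 for Cd47, and 12, 9 and 6 of the 22 alternatives pass the threshold.

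Since the treatments differed in the shares of clusters, the same comparison was made within the microglia-like clusters that had at least 10 cells in every hashtag, namely clusters 0, 3 and 4. No member passed the threshold in any of them (edgeR), where 0.615%, 0.151% and 0.0876% of genes were called. At an unadjusted p under 0.05 there were 3 of 9 members in cluster 0, 1 of 10 in cluster 3 and 0 of 7 in cluster 4, against 8.43%, 8.48% and 9.11% of all genes tested there. In cluster 0 Havcr2 averaged 317 ± 30.7 CPM in TAM and 264 ± 18.7 CPM in oil (SD, n = 5 each), a log2 fold change of 0.26 ± 0.08 (SE) with an adjusted p of 0.162 (edgeR). In the largest cluster it averaged 321 ± 12.3 CPM in TAM and 301 ± 18.9 CPM in oil, a log2 fold change of 0.10 ± 0.06 with an adjusted p of 0.683 (edgeR).

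Lag3 and Cd47 had negative estimates in all 3 clusters. The log2 fold changes of Lag3 were -0.23 in cluster 0, -0.12 in cluster 3 and -0.34 in cluster 4, and those of Cd47 were -0.15, -0.10 and -0.30 in the same clusters. Sirpa had the smallest p of the members in the largest cluster, with 947 ± 52.2 CPM in TAM and 835 ± 73.3 CPM in oil (SD, n = 5 each), a log2 fold change of 0.17 ± 0.06 (SE) and an adjusted p of 0.321 (edgeR).

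The levels of some members followed the cell states. The clusters were made from the same cells, so these levels are a description without a test, although no member was among the 2000 variable genes behind the clusters. They are CPM of summed UMIs without TMM scaling. Between microglia-like clusters the log2 range was widest for Cd274, at 3.70, followed by Cd47 at 1.32 and Lag3 at 1.16, and narrowest for Lair1, at 0.41. The order below Cd274 depended on the clustering. With the members kept out of the choice of variable genes Lag3 had a range of 0.67, below Cd80 at 0.96, Vsir at 0.76 and Cd86 at 0.69. At a Leiden resolution of 1.0, Cd86 at 2.41, Cd80 at 2.15 and Sirpa at 1.83 were wider than Cd47 at 1.80, and Havcr2 at 0.82 was narrower than Lair1 at 1.07. The highest level of Cd86 and Sirpa there, and the lowest of Cd80, Cd47 and Lair1, came from 1 cluster led by Egr3. It held only 12 cells, 3 oil and 9 TAM, so these ranges may reflect its few UMIs. Cd274 was the widest in both, at 3.02 and 3.82.

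Cd274 was highest, among microglia-like clusters, in cluster 4, led by Spp1, Lgals3 and Lpl, genes known from activated, lipid-handling microglia. Its 208 cells had 52.8 CPM (65 UMIs, exact Poisson 95% interval 40.7 to 67.3, counting error only), against 11.7 CPM in the largest cluster, a ratio of 4.51. Cluster 4 was the higher in 10 of 10 hashtags, though Oil1, Oil2 and Oil4 each had 1 Cd274 UMI there and Oil3 had 2. The cluster held 2.63% of singlets and 13.7% of their Cd274 UMIs. The interferon-responsive cluster 5, led by Ifit3 and Ifit2, had 22.5 CPM from 14 UMIs, 7 of them from Oil3. The dividing cluster 7, led by Mki67, had 3.15 CPM from 2 UMIs. The cluster with the highest Cd274 was led by Spp1 in both alternative clusterings as well.

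The Cd274 values of the treatments were compared inside and outside cluster 4, a split that edgeR did not test because Cd274 had too few UMIs there. Within cluster 4 Cd274 measured 59.2, 83.1, 58.0, 36.6 and 157 CPM in TAM1 to TAM5, against 11.6, 9.91, 22.1, 14.7 and 41.4 CPM in Oil1 to Oil5. TAM4 was below Oil5, and all other TAM hashtags were above all oil hashtags. The means were 78.9 ± 46.9 CPM in TAM and 19.9 ± 12.9 CPM in oil (SD, n = 5 each), from 55 TAM and 10 oil UMIs. The exact two-sided permutation test over 252 regroupings gave p = 0.0159, where 0.00794 is the smallest it can give. This comparison was picked after the values were seen, from 10 genes in several clusters, and its p is not adjusted for that.

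Outside cluster 4, the microglia-like cells had 11.2 ± 1.94 CPM of Cd274 in TAM and 9.02 ± 2.77 CPM in oil (SD, n = 5 each; exact permutation p = 0.198). The log2 ratio of the level inside over outside cluster 4 averaged 2.65 ± 0.64 in TAM and 1.004 ± 0.85 in oil (SD, n = 5 each; exact two-sided permutation p = 0.0238), from 1.91 to 3.53 in TAM and from 0.27 to 2.35 in oil. This test was also chosen after the values were seen and is not adjusted for that. The oil ratios rest on 1 to 5 Cd274 UMIs per hashtag inside cluster 4. The share of cluster 4 in TAM hashtags was 2.18% to 4.68%, against 1.51% to 2.39% in oil hashtags, which held 12 to 20 cells of it each. Whether the cells of cluster 4 were in the same state in both treatments was not tested.

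Cd86 was also higher in cluster 4, at 470.2 CPM against 343 CPM in the largest cluster, in 10 of 10 hashtags. Vsir ran the other way, at 650 CPM in cluster 4 and 1038 CPM in the largest cluster, lower in 10 of 10 hashtags. Cd80 was likewise lower, at 23.6 CPM in cluster 4 and 46.1 CPM in the largest cluster, and Cd47 at 106 CPM in cluster 4 and 179.6 CPM in the largest cluster, both in 10 of 10 hashtags. Sirpa had 1061 CPM in cluster 4 and 921 CPM in the largest cluster, higher in 8 of 10 hashtags.

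**Figure D4:**
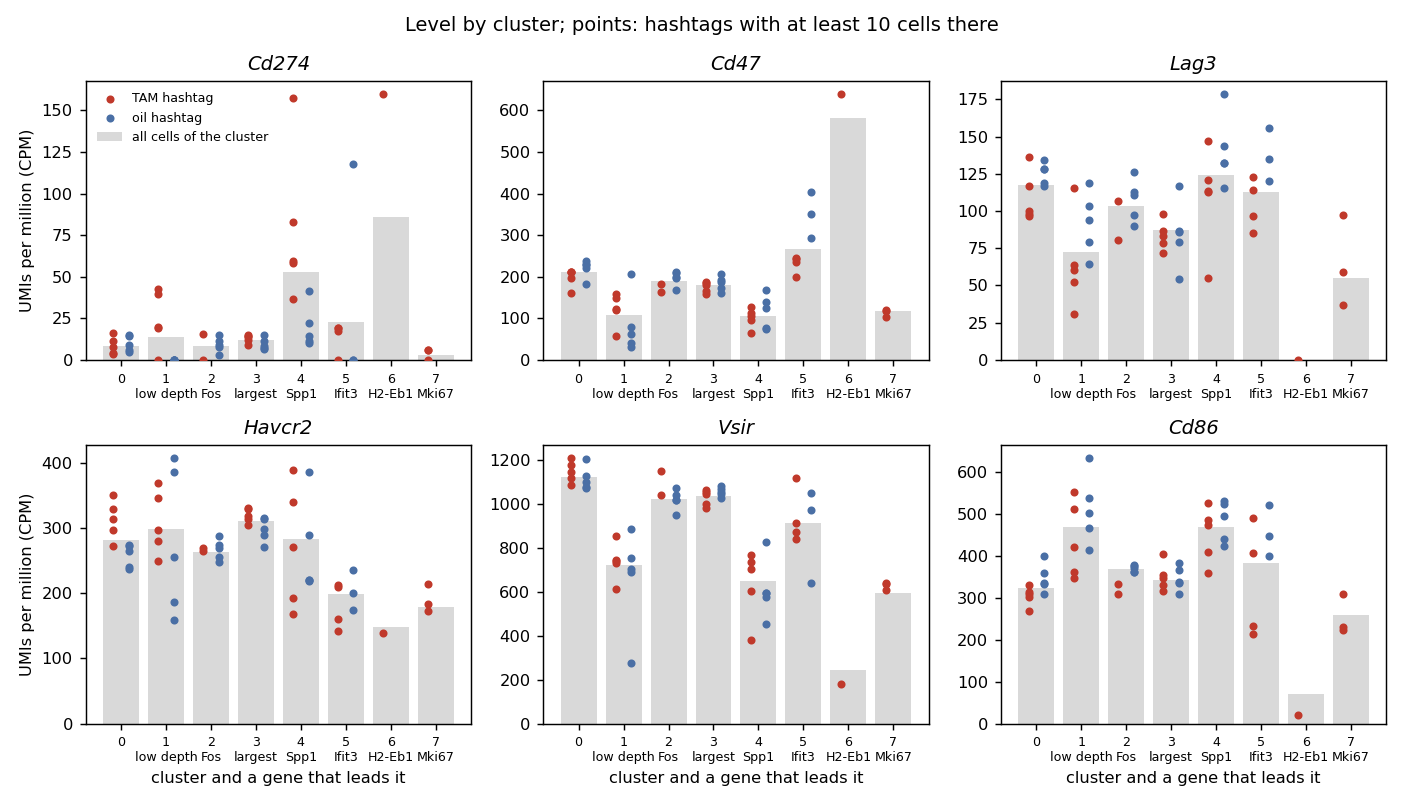
Level of 6 members by cluster in UMIs per 1000000 (CPM, linear axes from 0), with grey bars for all cells of a cluster and points for hashtags with at least 10 cells there (TAM left in red, oil right in blue). The Cd274 bar reaches 52.8 CPM in the Spp1-led cluster and 11.7 CPM in the largest, and the Lag3 bar is at 0 in the H2-Eb1-led cluster.

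Cd47 had its highest microglia-like level in the interferon-responsive cluster 5, at 266 CPM from 165 UMIs, against 179.6 CPM in the largest cluster, higher in 7 of the 7 hashtags with at least 10 cells there. The cluster with the highest Cd47 was led by Ifit3 in both alternative clusterings too. Havcr2 showed the opposite order, at 200 CPM in cluster 5 and 311 CPM in the largest cluster, lower in 7 of 7 hashtags. Havcr2 was also lower in cluster 2, led by Fos, at 264 CPM, in 6 of 7 hashtags. Cluster 2 consisted of 150 TAM and 1546 oil cells. Without it the log2 fold change of Havcr2 was 0.15 ± 0.05 (SE) with an adjusted p of 0.108 (edgeR), against 0.17 ± 0.04 with all microglia-like cells. Its part in the treatment difference of Havcr2 was not tested.

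Lag3 had its highest microglia-like level in cluster 4, at 124 CPM, against 87.2 CPM in the largest cluster, a ratio of 1.42, higher in 9 of 10 hashtags. It was also higher in cluster 0 than in the largest cluster, at 118 and 87.2 CPM, in 10 of 10 hashtags, and at 103 CPM in cluster 2, in 7 of 7 hashtags. The dividing cluster 7 was low in several members, with 55.1 CPM of Lag3, 179.5 CPM of Havcr2, 597 CPM of Vsir and 579.5 CPM of Sirpa, although it had only 87 cells and 3 hashtags with at least 10. In this clustering Lair1 had the narrowest range, from 633 CPM in cluster 4 to 843 CPM in cluster 7.

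Cluster 6, which was left unnamed, stood apart from the microglia-like cells in most members. H2-Eb1 and H2-Aa, MHC class II genes, led its 52 cells, and the median detection of the 14 microglial markers was 26.9%. Lag3 had a UMI in 0 of 52 cells, which allows a share of up to 5.77% of cells with a UMI, not of cells expressing the gene. Thinned to 2000 UMIs per cell, Lag3 had a UMI in 0 of the 49 cluster 6 cells deep enough, with 3 left out, against 17.2% of microglia-like cells, with 97 left out. Unthinned, the share of microglia-like cells was 36.8%. Median depths were 3684.5 UMIs in cluster 6 and 4164 to 6763 UMIs in the microglia-like clusters. Vsir had 243 CPM in cluster 6 and Cd86 71.4 CPM, both below every other cluster. Cd47, at 581 CPM, and Cd274, at 85.7 CPM from 18 UMIs, were above every other cluster.

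The genes closest in pattern to the 3 members with the widest range were taken over the 8 clusters among 9245 genes, by Pearson correlation of log2(CPM + 1). They were Prkch (r = 0.959), Lilrb4a (r = 0.956) and Pum3 (r = 0.956) for Cd274, and Lst1 (r = 0.980), Stxbp2 (r = 0.978) and Ube2b (r = 0.977) for Cd47. For Lag3 they were Spint1 (r = 0.998), Mrps6 (r = 0.997) and Tmem9 (r = 0.997). The 8 points come from 1 library and cluster 6 lies far from the others, so the values are a description.

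A list of other inhibitory and costimulatory receptors, ligands and related genes held a few genes called in each direction. Of 67 such genes in the matrix, 33 had enough UMIs to be tested, 2 rose, 2 fell and 29 did not pass, where 4.53% of all genes were called, with a median log2 fold change of -0.02, against -0.00019 over all genes. With the replicate block 3 rose and 3 fell, where 7.80% of all genes were called. Lrp1, an endocytic receptor of engulfing cells, rose to 412 ± 37.8 CPM in TAM, against 344 ± 22.6 CPM in oil (SD, n = 5 each; log2 fold change 0.26 ± 0.06 SE, adjusted p = 0.0208, edgeR). Cd52, a small glycoprotein of the leukocyte surface, rose to 186 ± 16.4 CPM in TAM, against 153 ± 15.7 CPM in oil (log2 fold change 0.27, adjusted p = 0.0401, edgeR). C1qa, a chain of C1q, fell to 5649 ± 236 CPM in TAM, against 6196 ± 214 CPM in oil (log2 fold change -0.13, adjusted p = 0.0337, edgeR). Cd300c2, of the CD300 receptor family, fell to 454 ± 14.1 CPM in TAM, against 503 ± 13.2 CPM in oil (log2 fold change -0.15, adjusted p = 0.0333, edgeR). With library size scaling C1qa and Cd300c2 missed the threshold (adjusted p = 0.0805 and 0.0848, edgeR). With only Oil4 and Oil5 left in oil the adjusted p was 0.284 for Lrp1, 0.121 for Cd52, 0.226 for C1qa and 0.258 for Cd300c2 (edgeR). The log2 fold change of Cd52 was 0.05 without cluster 2 (adjusted p = 0.864) and 0.08 in the largest cluster (adjusted p = 0.927, edgeR).

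Ligands of TIM-3 in that list, named here after their values were seen, were expressed by the microglia themselves. Lgals9, the gene of galectin-9, averaged 207 ± 12.5 CPM in TAM and 188 ± 7.17 CPM in oil (SD, n = 5 each; adjusted p = 0.125, edgeR). Hmgb1 averaged 316 ± 6.73 CPM in TAM and 353 ± 21.9 CPM in oil, with an adjusted p of 0.0551 by edgeR, 0.0364 by edgeR with the replicate block and 0.0424 by DESeq2. Ceacam1 averaged 32.7 ± 5.18 CPM in TAM and 30.8 ± 3.34 CPM in oil (adjusted p = 0.739, edgeR).

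Proteins that carry the signals of these receptors, and regulators known to act on Cd274, gave no call with edgeR without a block. Of 23 signalling genes tested 0 passed, 7 had an unadjusted p under 0.05, DESeq2 called 1 and edgeR with the replicate block called 3, and the median log2 fold change was 0.0022. Over all genes, 19.5% had an unadjusted p under 0.05 with edgeR and 14.7% with DESeq2. At the adjusted threshold, DESeq2 called 4.43% of all genes and edgeR with the replicate block 7.80%. Of 18 interferon and NF-kB regulators tested 0 passed with edgeR or DESeq2, 4 had an unadjusted p under 0.05 with edgeR and 3 with DESeq2, the replicate block called 1, and the median was -0.02. Ptpn6, the gene of the phosphatase SHP-1, named after its values were seen, averaged 131 ± 5.31 CPM in TAM and 147 ± 10.1 CPM in oil (SD, n = 5 each; adjusted p = 0.0831, edgeR, and 0.0356 with the replicate block).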

How the data were processed

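Gene expression and hashtags were counted together with 10x 3′ v3.1 chemistry. The authors deposited 1 matrix of raw UMI counts, for which the submitters' processing notes name the build mm10 and the file headers name Cell Ranger 7.0.0. The sources used here do not give the gene annotation or the barcode filter. Hashtags were assigned with HTODemux (Seurat 5.3.0, quantile 0.99), giving 8055 singlets, 1737 barcodes (17.4%) that carried more than 1 hashtag and 183 that carried none. The last 2 kinds were left out and no other doublet caller was run, so doublets within a hashtag remain. Cells needed 500 genes, 1000 UMIs and at most 10% mitochondrial UMIs. Clustering used scanpy 1.11.5 (2000 variable genes, 30 components, 15 neighbours, Leiden resolution 0.5).

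Sums of UMIs over the microglia-like cells of each hashtag were tested with edgeR 4.0.16 (TMM, filterByExpr, quasi-likelihood F test, Benjamini-Hochberg adjustment over all genes, threshold 0.05), with DESeq2 1.42.0 beside it. Standard errors are the absolute log2 fold change over the square root of F, an approximation. The test was tried on simulated counts drawn independently for each hashtag, without differences by sex, shared number or immediate early level. That trial cannot show how the test behaves where such differences exist. Hashtags of the same number deviated together over 8915 genes, with correlations of 0.474, 0.309, 0.175, 0.175 and 0.196 for numbers 1 to 5. TAM1 and TAM2 correlated best with Oil1 and Oil2, while TAM3, TAM4 and TAM5 correlated best with Oil5, Oil5 and Oil4. What a shared number stands for is not given, and numbers 1 and 2 are also the male ones. The edgeR fit reported first and the permutation tests did not pair hashtags by number, and the replicate block is an alternative. No 2 hashtags of the same treatment held the same counts within sampling noise.

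Named genes were all 10 members, genes past the threshold in 3 lists, the 3 genes most alike to each of the 3 members with the widest range between clusters, and leading genes of clusters. The members, the lists, the motifs and the tests were chosen with earlier results of these data known.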

Additional observations from a re-analysis of the deposited data

How the results depend on the processing

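Havcr2, Lag3, Cd47 and Cd274 kept their direction under all 22 alternatives. The 506 genes called became 836 without a filter on low counts, 871 with the replicate block, 870 with sex, 73 adjusted for immediate early level, 37 adjusted for hashtag order, 15 in the largest cluster, 263 without the cluster led by immediate early genes, 7 without Oil1, Oil2 and Oil3, and 252 to 652 without 1 hashtag. The fit without Oil1, Oil2 and Oil3 compared only Oil4 and Oil5, both read as female, with TAM hashtags of both sexes. With library size scaling 359 of 613 called genes were higher in TAM, against 184 of 506. The 1 member called became 0 without Oil1, Oil2 and Oil3, adjusted for hashtag order, in the largest cluster or without the immediate early cluster; 2 with DESeq2 or all singlets (Lag3, Havcr2); 3 without the filter, with the block, with sex or with hashtags assigned by centred log ratio margin (Lag3, Havcr2, Cd47); and 0 to 3 without 1 hashtag. Adjusted for immediate early level, it was Lag3 in place of Havcr2.

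Log2 fold changes, none past the threshold, turned as follows. Adjusted for immediate early level they were 0.00036 for Vsir, 0.10 for Cd86, 0.073 for Lair1, -0.066 for Cd200r1 and -0.020 for Sirpa. Adjusted for hashtag order they were 0.011 for Vsir, 0.15 for Cd86, 0.063 for Lair1, -0.097 for Cd200r1 and -0.029 for Sirpa. In the largest cluster they were -0.027 for Cd80, 0.023 for Cd86 and 0.046 for Lair1. Without Oil1, Oil2 and Oil3 they were 0.068 for Lair1 and -0.061 for Cd200r1. Lair1 was 0.029 with library size scaling, 0.038 without the immediate early cluster and -0.028 to 0.017 without 1 hashtag. The causes were not tested. Neither the immediate early level nor the hashtag order overlapped between treatments, so estimates adjusted for them extrapolate across a gap. The replicate block changed no call of a member other than Lag3 and Cd47. Cd274 is limited by its 449 UMIs, and states with under 10 cells in some hashtag were not compared between treatments.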
